A study of Mus musculus with 24 samples.

Results

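The circadian clock genes Per1, Per2, Per3, Cry1, Cry2, Arntl, Clock, Nr1d1, Nr1d2 and Dbp were examined in RNA sequenced from sorted cells of the mouse ileum. These 10 genes were chosen by name as core genes of the clock and its direct output, and all 10 were found by symbol among the 39056 genes of the count table. The question was whether the state of the clock differed between the groups of mice or between the cell fractions.

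The clock is a feedback loop that runs in almost every cell. ARNTL (also called BMAL1) and CLOCK bind DNA as a pair at E-box sequences and switch on the Per and Cry genes, whose proteins then block that pair. Nr1d1 and Nr1d2 encode the nuclear receptors REV-ERB alpha and beta, which are switched on by the same pair and repress Arntl, so that Arntl and Nr1d1 peak at opposite times of day. Dbp, a transcription factor that binds D-box sequences, is a direct output of the loop. In the gut, the clock follows feeding as well as light, and Per1 can also be induced within minutes by stress signals and glucocorticoids.

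Live cells were sorted into a CD45+ (hematopoietic) fraction and a CD45- fraction of epithelium, vessels and stroma. They were taken from the ileum after Peyer's patches had been removed, with part of the dissociated epithelium mixed back in. The C57BL/6 mice were Hoil1+/+ or Hoil1-/-, and all carried Il4ra flanked by loxP sites. In Il4ra dIEC mice a Vil1cre transgene removes Il4ra from intestinal epithelial cells (IECs), and Il4ra f/f mice keep it. Each of the 8 groups had 3 libraries, 24 in all, and the mice were aged 9 to 10.3 weeks. The time of day of collection is not given in the sources used here. Libraries are called by the replicate numbers 1 to 24 of their titles. The labels do not say which libraries came from 1 mouse, so p-values measure only the spread between these libraries.

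Values are given for the 21 libraries that the study kept (10 CD45+ and 11 CD45-). The CD45+ replicates 13 (Hoil1-/- Il4ra f/f) and 24 (Hoil1-/- Il4ra dIEC) and the CD45- replicate 23 (Hoil1-/- Il4ra f/f), which it left out as outliers, are named where they are used. Over all 24 libraries, total counts on genes ranged from 14938629 to 76807504 in CD45+ and from 6028275 to 68345191 in CD45- libraries. Rbck1, the gene that encodes HOIL1, was at 90.5 to 158 CPM (counts-per-million, scaled by TMM factors) in Hoil1+/+ and 5.38 to 15.9 CPM in Hoil1-/- CD45+ libraries, and at 73.3 to 110 and 2.78 to 7.29 CPM in CD45- libraries. The summed level of 3 leukocyte markers was 2447 to 2987 CPM in CD45+ and 0.950 to 31.3 CPM in CD45- libraries. The makeup of the CD45- libraries varied: the log2 ratio of 6 summed epithelial markers to 5 endothelial markers ran from -2.02 to 4.45, with 5 libraries up to 0.34, 6 from 2.17 upward and none between. In bulk RNA, fewer cells of a type and less RNA per cell cannot be told apart.

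The 4 promoters below hold letters that match DNA elements bound by factors of the loop. They are taken from RefSeq (GRCm38.p6), run 5′ to 3′ on the strand of the gene from 210 to 11 bases before the start site, and hold no annotated exon. Capitals mark E-box (CACGTG), E-prime box (CACGTT, or AACGTG read on the other strand) and D-box (TTATGNAA) letters, which were searched on both strands of the 250 bases before each start. Per1 (plus strand, chr11:69098739-69098938) holds an E-box and, close to its start, a D-box, and Nr1d1 (minus strand, chr11:98775388-98775587) holds an E-prime box. The start site used for Per1 lies 3732 bases inside the gene as annotated for the exon lengths used here. Per3 (minus strand, chr4:151044676-151044875) holds 2 D-boxes, and Cry1 (minus strand, chr10:85185065-85185264) an E-box and an E-prime box.
Per1: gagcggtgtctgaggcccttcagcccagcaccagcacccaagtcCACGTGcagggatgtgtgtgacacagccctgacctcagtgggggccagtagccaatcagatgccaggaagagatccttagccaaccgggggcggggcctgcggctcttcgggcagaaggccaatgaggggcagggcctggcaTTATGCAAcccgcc
Nr1d1: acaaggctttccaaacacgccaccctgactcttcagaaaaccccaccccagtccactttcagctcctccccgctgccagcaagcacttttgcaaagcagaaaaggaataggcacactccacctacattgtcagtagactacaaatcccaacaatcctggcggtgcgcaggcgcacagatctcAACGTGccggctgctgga
Per3: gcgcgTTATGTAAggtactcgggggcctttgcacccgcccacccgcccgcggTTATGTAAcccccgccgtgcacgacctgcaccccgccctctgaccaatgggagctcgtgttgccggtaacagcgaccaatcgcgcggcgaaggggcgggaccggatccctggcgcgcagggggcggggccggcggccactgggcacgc
Cry1: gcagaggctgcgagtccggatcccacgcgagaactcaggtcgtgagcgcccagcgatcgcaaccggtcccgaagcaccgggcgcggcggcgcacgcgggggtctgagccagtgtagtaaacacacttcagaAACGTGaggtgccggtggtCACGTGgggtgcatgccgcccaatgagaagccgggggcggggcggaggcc
Among all 32807 mouse promoters of that length, 6.02% held the E-box, 3.85% the E-prime box, 3.07% the D-box and 1.87% the RORE letters ANTNGGTCA. Cry2 (chromosome 2) also had an E-prime box in its window, and no such letters were found in the windows of Arntl, Clock, Nr1d2 and Dbp. The window of another annotated start site of Per1, 4935 bases inside the gene, held none of them either. RORE letters were found in no window of these clock genes. A match is a description of the letters, and no binding was measured.

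Per1 was the most abundant clock gene in both fractions. Per kilobase of exon, which allows genes to be compared, Per1 was at 75.6 ± 36.7 CPM per kb (SD, n = 10) in CD45+ and 20.8 ± 10.9 CPM per kb (SD, n = 11) in CD45- cells. Nr1d1 came next with 13.8 ± 9.01 and 10.8 ± 8.10 CPM per kb, and Per1 exceeded it in 10 of 10 CD45+ and 10 of 11 CD45- libraries. Cry1 followed with 5.36 ± 1.52 CPM per kb in CD45+ and 6.32 ± 2.02 in CD45- cells. Below these, the order depended on the fraction. In CD45+ cells it was Nr1d2 (4.99 ± 2.05 CPM per kb), Dbp (3.69 ± 0.788), Arntl (2.06 ± 0.647), Cry2 (1.45 ± 0.524), Clock (1.37 ± 0.445), Per2 (1.23 ± 0.575) and Per3 (0.323 ± 0.161). Cry1 and Nr1d2 changed places between libraries (Cry1 was above Nr1d2 in 5 of 10). Arntl was above Cry2, Cry2 above Clock and Clock above Per2 in 6 of 10 each. In CD45- cells the order was Arntl (4.23 ± 1.03 CPM per kb), Clock (3.06 ± 0.878), Per2 (2.66 ± 1.40), Cry2 (2.48 ± 0.621), Nr1d2 (2.17 ± 1.04), Dbp (0.632 ± 0.655) and Per3 (0.381 ± 0.256). There, Per2 and Cry2 (5 of 11), Cry2 and Nr1d2 (6 of 11) and Nr1d1 and Cry1 (6 of 11) could not be ordered. The counts of some members include exons shared with a gene on the opposite strand, and whether the counting used strand is not given in the sources used here. Nr1d1 shares 263 bases, 8.5% of its exons, with Thra, the thyroid hormone receptor alpha gene, and Dbp shares 539 bases, 18%, with Sphk2, a sphingosine kinase gene. Thra was lower in CD45+ cells (log2 difference -3.0, standard error 0.15, adjusted p = 5.4e-10, edgeR), a gene whose reads the Nr1d1 counts may include. Cry2 shares 295 bases with D930015M05Rik, which had 0 counts.

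**Figure D1:**
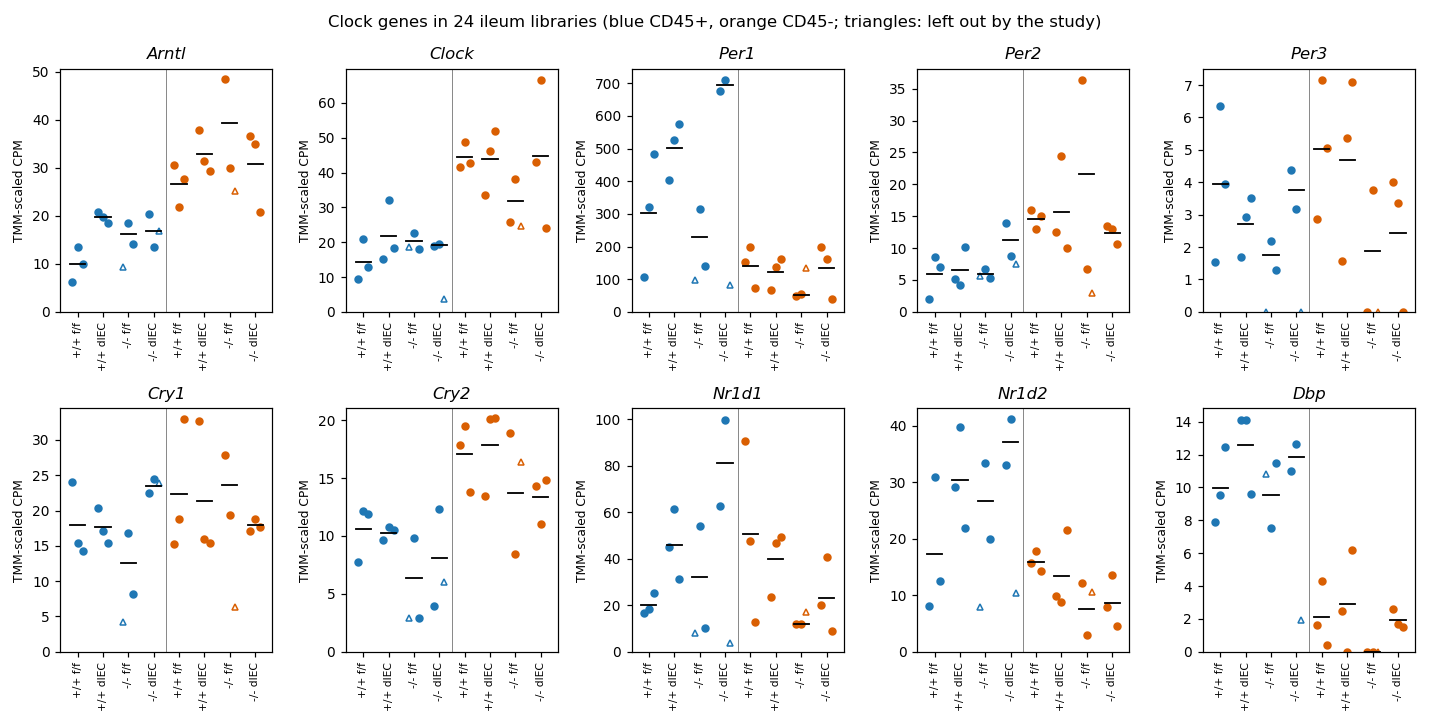
TMM-scaled CPM (vertical axes, linear from 0) of the 10 clock genes in each library, by Hoil1 (+/+ or -/-) and Il4ra (f/f or dIEC) genotype, with CD45+ groups in blue and CD45- groups in orange. Bars are means of the libraries that the study kept, and open triangles are the 3 it left out; Per1 ran from 107 to 711 CPM in CD45+ and from 40.9 to 198.5 CPM in CD45- cells, and Dbp from 7.55 to 14.1 CPM and from 0 to 6.20 CPM.

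The fractions differed in their clock genes. Averaged over the 4 genotypes, 7 of the 10 genes passed edgeR's quasi-likelihood test at an adjusted p of 0.05, where 49.6% of the 18778 genes tested passed (24.5% higher and 25.1% lower in CD45+ cells). Per1, Nr1d2 and Dbp were higher in CD45+ cells, and Arntl, Clock, Per2 and Cry2 were lower. Both activators of the loop, Arntl and Clock, were thus lower in the hematopoietic fraction, while Per1 and Per2 went opposite ways. The median log2 difference was -0.22 over the 10 genes and 0.03 over all genes tested. The former does not depend on the size of the Dbp value, which could not be fitted as a fold change. Whether 7 of 10 exceeds the share of all genes was not tested.

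For Arntl, which encodes the DNA-binding partner of CLOCK, the lowest, median and highest levels were 6.18, 16.3 and 20.8 CPM in CD45+ and 20.8, 30.5 and 48.6 CPM in CD45- libraries. The 2 ranges met but hardly overlapped, and Arntl was 1.07 lower in CD45+ cells (fitted log2 difference -1.07, standard error 0.18, adjusted p = 7.8e-05, edgeR). Clock had 9.49, 18.6 and 32.1 CPM in CD45+ and 24, 42.9 and 66.7 CPM in CD45- libraries, a log2 difference of -1.12 (standard error 0.21, adjusted p = 0.00027, edgeR). Among clock repressors, Per1 was higher in CD45+ cells, with 107, 443 and 711 CPM there and 40.9, 137 and 198.5 CPM in CD45- libraries, a log2 difference of 1.92 (standard error 0.32, adjusted p = 1.0e-04, edgeR). The ranges overlapped, the lowest CD45+ library being replicate 12, of a Hoil1+/+ Il4ra f/f mouse. Per2 went the other way, with 2.02, 6.85 and 13.9 CPM in CD45+ and 6.69, 13 and 36.4 CPM in CD45- libraries, a log2 difference of -1.13 (standard error 0.33, adjusted p = 0.0081, edgeR). Cry2 was at 2.95, 10.1 and 12.3 CPM in CD45+ and 8.46, 14.8 and 20.2 CPM in CD45- libraries, a log2 difference of -0.82 (standard error 0.26, adjusted p = 0.013, edgeR). Without the CD45- replicate 1, which had the highest Per2 level, the log2 differences of Per2 and Cry2 were -0.71 and -0.64 and neither passed (adjusted p = 0.061 and 0.055, edgeR).

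Nr1d2, the beta form of REV-ERB, was at 8.09, 30.1 and 41.2 CPM in CD45+ and 2.98, 12.2 and 21.6 CPM in CD45- libraries, a log2 difference of 1.30 (standard error 0.31, adjusted p = 0.0022, edgeR). Nr1d1, the alpha form, did not pass (log2 difference 0.53, standard error 0.36, adjusted p = 0.25, edgeR), with medians of 38.1 and 23.7 CPM. Dbp separated the fractions in every library kept by the study, like 8.4% of all genes tested, which were higher in CD45+ cells with no overlap. It was at 7.55, 11.3 and 14.1 CPM in CD45+ and 0, 1.63 and 6.20 CPM in CD45- libraries. The ratio of its mean levels was 5.84, and its adjusted p was 6.4e-05 (edgeR). No fitted fold change is given for Dbp here, because 1 of the 8 groups had no Dbp count at all. Sphk2, which shares exon bases with Dbp, was also higher in CD45+ cells (log2 difference 0.69, standard error 0.18, adjusted p = 0.0034, edgeR). In the left-out CD45+ replicate 24 Dbp was at 1.91 CPM, within the CD45- range. Cry1 (log2 difference -0.28, standard error 0.21, adjusted p = 0.30) and Per3 (log2 difference -0.16, standard error 0.68, adjusted p = 0.99) did not pass the same edgeR test. Per3 was at 0 in 2 CD45- libraries, replicates 1 and 5, and reached 7.15 CPM in another.

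Of 18 further clock genes, 9 passed between the fractions, 7 higher and 2 lower in CD45+ cells, beside 49.6% of all genes tested. The 6 with the smallest p were Rora, Usp2, Bhlhe41, Hlf, Npas2 and Nfil3. Rora, an activator that competes with the REV-ERBs at Arntl, had a log2 difference of 3.39, Bhlhe41, a repressor of the CLOCK partner pair, 5.66, and Hlf, a relative of Dbp, 4.4. Nfil3, a repressor that competes with Dbp for D-boxes, had 1.61. Npas2, which can replace CLOCK, was lower in CD45+ cells with a log2 difference of -3.92, as was Usp2, a ubiquitin protease, with -2.21. Their adjusted p ranged from 1.6e-06 to 8.0e-04 (edgeR). In 10 immediate-early genes, which respond to stress and to cell dissociation, 3 passed (Junb 1.87, Fosb 1.48 and Dusp1 1.36 higher in CD45+ cells on the log2 scale), a smaller share than the 49.6% of all genes. Of 5 glucocorticoid-responsive genes, Tsc22d3 (2.29) and Fkbp5 (1.11) were higher and Sgk1 (-2.32) and Klf9 (-1.92) lower. The summed immediate-early level was 2542 to 23607 CPM in CD45+ and 1505 to 18241 CPM in CD45- libraries, and its part in the level of Per1 was not tested.

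**Figure D2:**
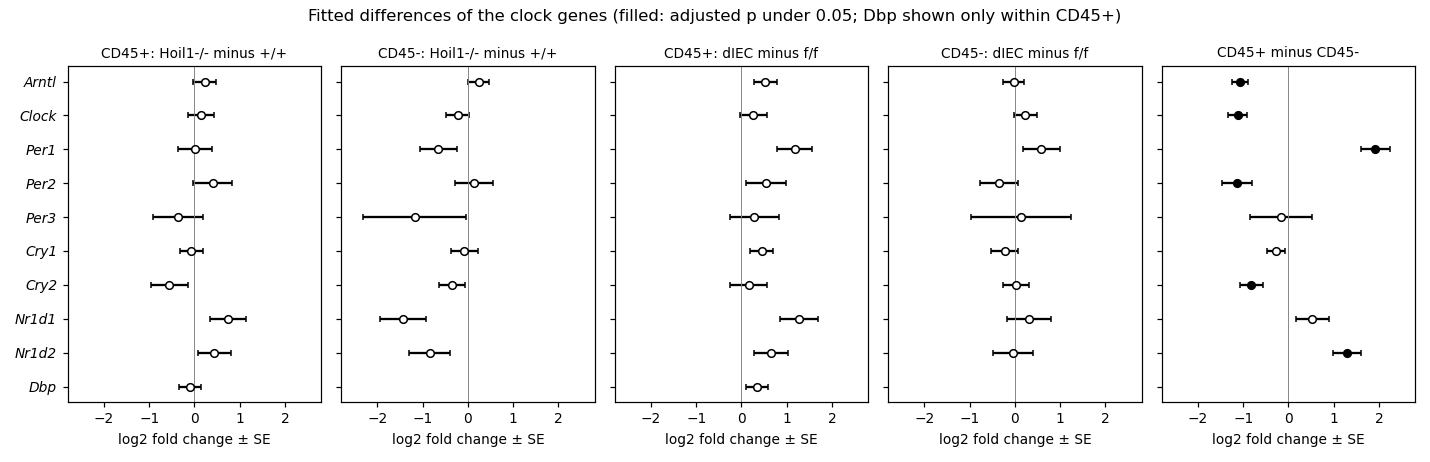
Fitted log2 fold changes (horizontal axes, dots) with standard errors (bars) of the clock genes for the averaged Hoil1 and Il4ra effects in each fraction and for CD45+ minus CD45- cells, from edgeR. Filled dots passed an adjusted p of 0.05; they appear only in the comparison of fractions, where Per1 (1.92) and Nr1d2 (1.30) lie to the right and Arntl (-1.07), Clock (-1.12), Per2 (-1.13) and Cry2 (-0.82) to the left. Dbp is shown within CD45+ cells only.

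Hoil1 status did not move any clock gene past the threshold in CD45+ cells. Of the 10 genes, 0 passed edgeR's test for the effect averaged over Il4ra genotypes, where 0.00587% of 17029 genes passed. None (0) had an unadjusted p under 0.05, and 0 passed with DESeq2 or the likelihood ratio test. Fitted log2 differences (Hoil1-/- minus Hoil1+/+) were positive in 6 and negative in 4 genes, with a median of 0.07 over the 10 genes and -0.05 over all genes. The largest was that of Nr1d1, at 0.74 (standard error 0.40, adjusted p = 0.78, edgeR). Nr1d1 was at 16.7, 28.2 and 61.5 CPM (lowest, median and highest of 6) in Hoil1+/+ libraries and at 10.3, 54.1, 62.8 and 99.9 CPM in the 4 Hoil1-/- libraries. Of these 4 values, 10.3 CPM lay below the Hoil1+/+ range, 54.1 CPM within it and the others above it. The other differences were 0.44 (standard error 0.36) for Nr1d2, 0.40 (0.44) for Per2, 0.23 (0.25) for Arntl, 0.14 (0.29) for Clock, 0.01 (0.38) for Per1, -0.07 (0.25) for Cry1, -0.10 (0.25) for Dbp, -0.37 (0.55) for Per3 and -0.55 (0.42) for Cry2. Each was within 2 standard errors of 0, and with the left-out replicates 13 and 24 the values for Per1 and Clock became -0.38 and -0.10.

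Within Il4ra f/f mice (0% of all genes passed) and within Il4ra dIEC mice (0%), again 0 of the 10 genes passed, and 0 passed for the difference between these effects (0%). None of the 10 had an unadjusted p under 0.05 in these 3 edgeR contrasts, and 0 passed with DESeq2 or the likelihood ratio test. In Il4ra dIEC mice the 2 Hoil1-/- libraries lay above the 3 Hoil1+/+ libraries for Per1 (676 and 711 against 403 to 574 CPM), Nr1d1 (62.8 and 99.9 against 31.2 to 61.5 CPM) and Cry1 (22.5 and 24.5 against 15.4 to 20.4 CPM). The same held for 14% of the 17029 genes tested. The left-out replicate 24 of the same group had 81.1 CPM of Per1 and 3.59 CPM of Nr1d1, so only Cry1 stayed apart with it, beside 4.33% of all genes. In Il4ra f/f mice 1 gene, Arntl, was apart, at 14.1 and 18.4 CPM in Hoil1-/- against 6.18 to 13.5 CPM in Hoil1+/+ libraries, and the left-out replicate 13 had 9.31 CPM. Of all genes, 9.4% were apart and higher in this way. The summed level of 7 ILC2 markers, the innate lymphoid cells that respond to IL-25, was 148 to 657 CPM in Hoil1-/- and 34.2 to 126 CPM in Hoil1+/+ libraries, and its part in these values was not tested.

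In CD45- cells, 0 of the 10 genes passed for the averaged Hoil1 effect, where 0.0182% of 16453 genes did (edgeR). Unadjusted p were under 0.05 for 2 of them, Nr1d1 and Dbp, and 0 passed with DESeq2 or the likelihood ratio test. Fitted log2 differences were negative in 8 of the 10 genes, with a median of -0.51 against -0.08 over all genes tested. Nr1d1 had the lowest apart from Dbp. Its levels were 12.9, 47.3 and 90.8 CPM (lowest, median and highest of 6) in Hoil1+/+ libraries and 8.73, 11.7, 12.1, 20.0 and 40.7 CPM in the 5 Hoil1-/- libraries. The groups overlapped, with 4 of the 5 Hoil1-/- libraries at or below 20.0 CPM and 2 of the 6 Hoil1+/+ libraries, replicates 8 and 9, at 12.9 and 23.7 CPM. The log2 difference was -1.44 (standard error 0.51, unadjusted p = 0.016, adjusted p = 0.87, edgeR). It was -0.85 (standard error 0.45) for Nr1d2, -0.66 (0.41) for Per1, -1.18 (1.14) for Per3, -0.36 (0.29) for Cry2, -0.23 (0.26) for Clock, -0.08 (0.30) for Cry1, 0.13 (0.42) for Per2 and 0.24 (0.23) for Arntl.

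Within Il4ra f/f mice, 5 of the 10 genes (Per1, Clock, Nr1d1, Nr1d2 and Dbp) had both Hoil1-/- libraries below all 3 Hoil1+/+ libraries, as did 19.2% of the 16453 genes tested. None of the 10 genes (0) passed edgeR's test there, where 0.0365% of all genes passed. At the looser limit of an unadjusted p under 0.05 there were 3 genes (edgeR), and the share of all genes at that limit is not given here. By the likelihood ratio test, where 2.13% of all genes passed, and by DESeq2, where 3.19% did, 1 of the 10 passed, Dbp. Nr1d1 was at 11.7 and 12.1 CPM in Hoil1-/- and 12.9, 47.8 and 90.8 CPM in Hoil1+/+ libraries, so that replicate 8 lay close to the mutant pair. Its log2 difference was -2.07 (standard error 0.78, unadjusted p = 0.023, adjusted p = 0.36, edgeR). Per1 was at 47.4 and 55.5 CPM in Hoil1-/- and 71.9, 153 and 198.5 CPM in Hoil1+/+ libraries, a log2 difference of -1.45 (standard error 0.64, unadjusted p = 0.045, adjusted p = 0.38, edgeR). Dbp had no count in either Hoil1-/- library, nor in the left-out replicate 23. In Hoil1+/+ Il4ra f/f libraries it was at 0.410, 1.63 and 4.30 CPM, from 13, 13 and 95 counts. Their mean of 2.11 CPM is 8.87-fold higher than 3 counts in the shallower Hoil1-/- library (0.238 CPM), and 6.27-fold higher than 3 counts in replicate 23. That mean rests largely on replicate 7 at 4.30 CPM, while replicate 8 at 0.410 CPM lay close above 0.238 CPM. Sphk2 was at 43.9 and 74.7 CPM in the same Hoil1-/- pair, where the 3 Hoil1+/+ libraries had 63.5 to 67.0 CPM. Dbp was also without a count in replicate 10, a Hoil1+/+ Il4ra dIEC library. With replicate 23, 3 genes (Clock, Nr1d2 and Dbp) had groups that did not overlap, as did 10.7% of all genes in the same direction. That library had 134 CPM of Per1 and 17 CPM of Nr1d1.

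Some other marker sums also differed in this contrast among the libraries kept. The 2 Hoil1-/- Il4ra f/f libraries had 14836 and 16392 CPM of the 6 epithelial markers, against 1854 to 8218 CPM in Hoil1+/+ Il4ra f/f libraries. The 5 endothelial markers summed to 751 and 1348 CPM against 1207 to 4131 CPM, and the 4 muscle and pericyte markers to 395 and 1725 CPM against 2664 to 4199 CPM. The 5 stromal markers overlapped, at 315 and 1873 CPM against 420 to 3416 CPM. In the left-out replicate 23 the epithelial and endothelial sums were 3363 and 2624 CPM, within the Hoil1+/+ Il4ra f/f ranges. Its muscle and pericyte sum of 563 CPM lay below that range, and its stromal sum of 5768 CPM above. The 3 leukocyte markers were at 10.5 and 31.3 CPM against 0.950 to 8.23 CPM, and the 7 ILC2 markers at 22.1 and 30.4 CPM against 3.63 to 6.16 CPM. The ILC2 list holds Il17rb, which the paper also places on tuft cells of the epithelium. In CD45- libraries its sum therefore need not come from ILC2. The 10 immediate-early genes summed to 1505 and 2138 CPM against 7878 to 18241 CPM, and 8 of these 10 genes had an unadjusted p under 0.05, all with lower fitted levels in Hoil1-/- libraries, though 0 passed after adjustment (edgeR). In replicate 23 the immediate-early genes summed to 3349 CPM and the 3 leukocyte markers to 39.1 CPM, both outside the Hoil1+/+ Il4ra f/f ranges. The part of the immediate-early response in the Per1 and Nr1d1 values was not tested. With the epithelial to endothelial ratio as a covariate, the log2 difference was -1.88 for Nr1d1 (standard error 0.83) and -0.78 for Per1 (standard error 0.61). With replicate 23 added it was -1.86 for Nr1d1 and -0.79 for Per1. Thra, which shares exon bases with Nr1d1, had a log2 difference of -0.91 (standard error 0.28, unadjusted p = 0.0080, adjusted p = 0.31, edgeR).

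In Il4ra dIEC mice 0 of the 10 genes passed in CD45- cells and 0 had an unadjusted p under 0.05, where 0.00608% of all genes passed. Nr1d1 was at 8.73, 20.0 and 40.7 CPM in Hoil1-/- and 23.7, 46.7 and 49.6 CPM in Hoil1+/+ libraries, which overlapped. For the difference between the Hoil1 effects in the 2 Il4ra genotypes, 0 of the 10 genes passed (0% of all genes), 1 (Dbp) had an unadjusted p under 0.05, and Dbp alone passed with DESeq2, where 7.7% of all genes did. All of these counts come from edgeR's quasi-likelihood test unless another is named.

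Whether the Hoil1 effect itself differed between the fractions was tested over the 21 libraries. Again 0 of the 10 genes passed, where 0.0266% of all genes did (edgeR). Dbp alone passed with DESeq2 and the likelihood ratio test, where 1.21% and 1.1% of all genes did. At an unadjusted p under 0.05 there were 3 genes (edgeR), without a share of all genes to set beside them. Nr1d1 had a difference of 2.19 on the log2 scale (effect in CD45+ minus effect in CD45-, standard error 0.72, unadjusted p = 0.0077, adjusted p = 0.62, edgeR), and Nr1d2 one of 1.32 (standard error 0.62, unadjusted p = 0.048, adjusted p = 0.90). With the 3 left-out libraries these were 1.61 (unadjusted p = 0.077) and 0.83 (unadjusted p = 0.21). With a term for each genotype and age, to which replicates 5, 6, 14 and 18 add nothing because no library of the other fraction shares theirs, the difference was 0.65 for Nr1d1 (standard error 0.53, unadjusted p = 0.24, adjusted p = 1.0, edgeR).

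With Il4ra deleted in IECs, the fitted levels of all 10 clock genes were higher in CD45+ cells, but none passed the threshold. Fitted log2 differences (dIEC minus f/f) were positive in 10 of 10 genes, from 0.16 to 1.27, with a median of 0.49 against -0.01 over all genes. Of the 10 genes, 0 passed edgeR's test, where 0.00587% of all genes passed, and 0 passed with DESeq2 or the likelihood ratio test. An unadjusted p under 0.05 was found for 2 of the 10 (edgeR). The share of all genes at that looser limit is not given here. Nr1d1 was at 10.3, 16.7, 18.2, 25.2 and 54.1 CPM in Il4ra f/f and 31.2, 45.0, 61.5, 62.8 and 99.9 CPM in Il4ra dIEC libraries. Apart from replicate 14 at 54.1 CPM, all f/f values lay below all dIEC values. The log2 difference was 1.27 (standard error 0.41, unadjusted p = 0.012, adjusted p = 0.37, edgeR). Per1 was at 107, 141, 316, 320.5 and 482 CPM in f/f and 403, 527, 574, 676 and 711 CPM in dIEC libraries, where 1 f/f library, replicate 19, lay within the dIEC range. Its log2 difference was 1.17 (standard error 0.39, unadjusted p = 0.013, adjusted p = 0.38, edgeR). Arntl, whose transcript is repressed by REV-ERB alpha, was also higher by fit (0.53, standard error 0.25, adjusted p = 0.48). The other values were 0.65 (standard error 0.37) for Nr1d2, 0.54 (0.44) for Per2, 0.45 (0.25) for Cry1, 0.34 (0.25) for Dbp, 0.29 (0.55) for Per3, 0.26 (0.29) for Clock and 0.16 (0.41) for Cry2.

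The left-out replicate 24, a dIEC library, had 3.59 CPM of Nr1d1 and 81.1 CPM of Per1, below every library kept. With it and replicate 13 the log2 differences were 1.18 for Nr1d1 (standard error 0.64, unadjusted p = 0.092) and 1.05 for Per1 (standard error 0.51, unadjusted p = 0.062). Among the libraries kept, the 4 plasma cell markers, of antibody-secreting cells, summed to 19497 to 47480 CPM in f/f and 8451 to 15618 CPM in dIEC libraries. These ranges did not overlap, and the share of all genes apart in this way is not given here. The left-out replicate 24 had a log2 ratio of plasma to T cell markers of 6.53, where the dIEC libraries kept had 2.38 to 4.91. In replicate 13 that ratio was 4.23. With the plasma to T cell ratio as a covariate the log2 differences were 1.11 for Nr1d1 (standard error 0.51) and 1.2 for Per1 (standard error 0.44), and with immunoglobulin genes removed 1.27 and 1.17. With the same covariate Arntl was at 0.37 (standard error 0.26) and Clock at -0.00071 (standard error 0.27), so not all 10 clock genes stayed positive. Summed immediate-early levels overlapped, at 2542 to 23607 CPM in f/f and 6864 to 18073 CPM in dIEC libraries, and 0 of these 10 genes had an unadjusted p under 0.05. Of the other clock genes, 6 of 17 tested had an unadjusted p under 0.05 and 0 passed after adjustment.

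In CD45- cells 0 of the 10 genes passed for the Il4ra effect (0% of all genes, edgeR), 1 (Dbp) had an unadjusted p under 0.05, and 0 passed with DESeq2 or the likelihood ratio test. Apart from Dbp, fitted log2 differences ran from -0.35 for Per2 (standard error 0.42) to 0.58 for Per1 (standard error 0.41). Of the 18 other clock genes 3 had an unadjusted p under 0.05 and 0 passed. Neither the Hoil1 effects nor the Il4ra effect brought any of the other clock, immediate-early or glucocorticoid-responsive genes past the threshold in either fraction, with up to 8 genes of a list at an unadjusted p under 0.05.

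Ratios between genes of opposite phase within a library do not depend on how libraries are scaled. They would describe where in the cycle a library lies only if the makeup of the cells were alike. Phase and makeup cannot be told apart here. The log2 ratio of Nr1d1 to Arntl counts was 1.23 ± 0.88 (SD, n = 10) in CD45+ and -0.27 ± 1.17 (SD, n = 11) in CD45- libraries. In CD45+ cells it spanned 0.43 to 1.64 in Hoil1+/+ and -0.46, 1.55, 1.63 and 2.89 in Hoil1-/- libraries, so the extremes of this fraction were both Hoil1-/- libraries, replicates 15 and 17. The left-out libraries 13 and 24 were at -0.18 and -2.22. In CD45- cells it spanned -1.11 to 1.57 (median 0.66) in 6 Hoil1+/+ and -2.01 to 0.22 (median -1.25) in 5 Hoil1-/- libraries. These ranges overlapped, with 4 of the 6 Hoil1+/+ libraries at 0.57 or higher and all 5 Hoil1-/- libraries at 0.22 or lower. Unlike the Nr1d1 ratio, that of Per2 to Arntl was alike in the fractions, at -1.19 ± 0.63 (SD, n = 10) in CD45+ and -1.14 ± 0.55 (SD, n = 11) in CD45- libraries. Its medians were -1.23 and -1.02 in Hoil1+/+ and Hoil1-/- CD45+ libraries, and -0.91 and -1.43 in CD45- libraries. The median of the Per2 ratio thus lay lower in CD45- Hoil1-/- libraries, like that of Nr1d1, while all 4 ranges overlapped. The ratios share Arntl, fitted higher in these libraries (log2 difference 0.24, standard error 0.23), so they are not separate observations. Per2 itself was not fitted lower there. For Dbp to Arntl the range in CD45+ libraries was -1.29 to 0.35.

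**Figure D3:**
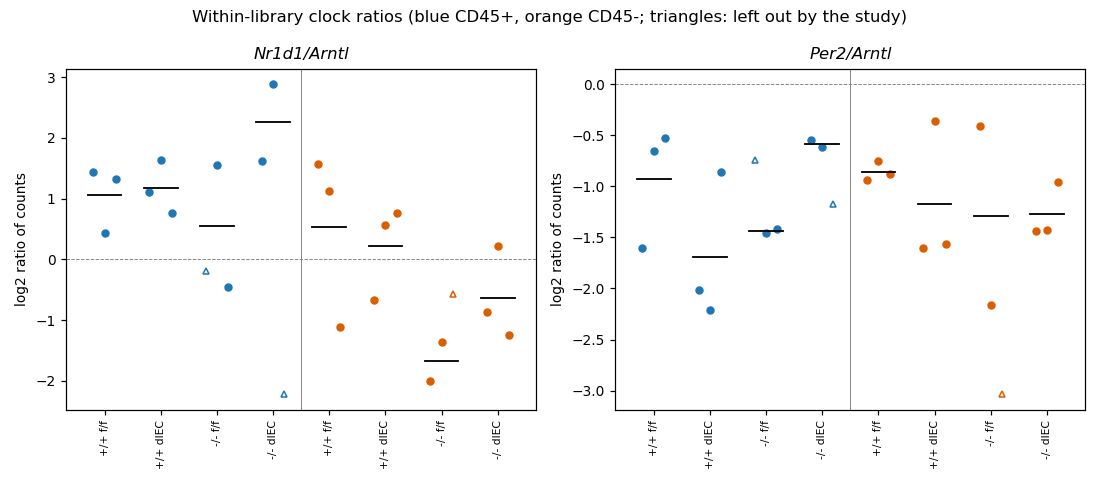
Log2 ratio of counts (vertical axes) of Nr1d1 to Arntl and of Per2 to Arntl in each library, by genotype, with CD45+ groups in blue, CD45- groups in orange, means as bars and the 3 left-out libraries as open triangles. The Nr1d1 ratio ran from -0.46 to 2.89 in CD45+ and from -2.01 to 1.57 in CD45- libraries kept by the study, and reached -2.22 in the left-out replicate 24.

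Arntl and Nr1d1 have opposite phases, so libraries taken at unlike clock times would be expected to show them varying inversely. Correlations of Arntl with the 9 other genes were computed in each fraction over log2(CPM + 0.5), with two-sided permutation p-values adjusted over the 18 relations. Of these, 0 passed an adjusted p of 0.05. In CD45+ libraries (n = 10) the highest were those with Nr1d2 (r = 0.82, permutation p = 0.0071, adjusted p = 0.13) and Clock (r = 0.74, permutation p = 0.018, adjusted p = 0.16). Spearman's rho was 0.44 for Nr1d2 (permutation p = 0.20, adjusted p = 0.95) and 0.39 for Clock (permutation p = 0.26, adjusted p = 0.95). Nr1d1 gave r = 0.52 (permutation p = 0.12, adjusted p = 0.36) and rho = 0.47 (permutation p = 0.18, adjusted p = 0.95), a positive sign and not an inverse one. Without the 2 libraries farthest from the median of Arntl, r was 0.09 for Nr1d2, 0.07 for Clock and 0.40 for Nr1d1, so the first pair of relations rested on those libraries.

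In CD45- libraries (n = 11) the relation of Arntl and Nr1d1 was near 0, with r = -0.04 (permutation p = 0.90, adjusted p = 0.90) and rho = 0.01 (permutation p = 0.99, adjusted p = 1.0). The highest r was that of Per2, 0.53 (permutation p = 0.093, adjusted p = 0.34), with rho = 0.46 (permutation p = 0.17, adjusted p = 0.95). Without the 2 farthest libraries they were -0.17 and 0.06. These libraries fall into an epithelium-rich and an epithelium-poor set, so the pooled values mix the 2 sets. Within the 6 epithelium-rich libraries r was 0.62 for Per2 (exact permutation p = 0.17, adjusted p = 0.75) and 0.09 for Nr1d1 (exact permutation p = 0.86, adjusted p = 0.95). The other 5 libraries were too few for a correlation.

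**Figure D4:**
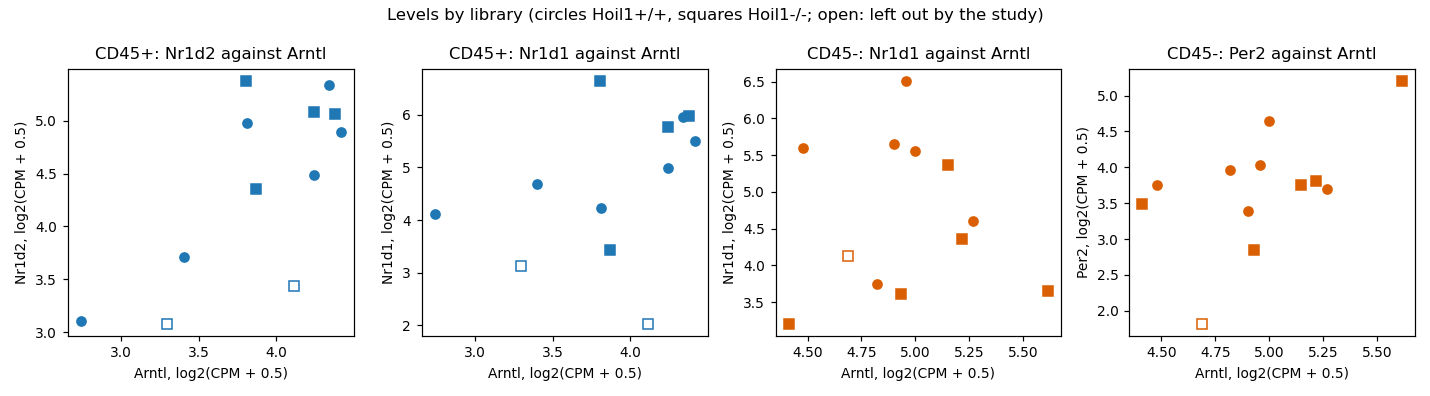
Levels of Nr1d2, Nr1d1 and Per2 (vertical axes) against Arntl (horizontal axes), all as log2(CPM + 0.5), in each library; blue is CD45+, orange CD45-, circles are Hoil1+/+, squares Hoil1-/-, and open symbols the 3 left-out libraries. In CD45+ cells Nr1d2 and Nr1d1 lie higher where Arntl is higher (r = 0.82 and 0.52 without the open symbols), and in CD45- cells the r of Nr1d1 with Arntl was -0.04.

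No clock gene was among the 5 that varied most like Arntl in either fraction. Over the 10 CD45+ libraries, the 5 of 17028 genes with the highest r to Arntl were Kif20b (0.95), Ifi208 (0.95), 1190007I07Rik (0.94), Gprasp1 (0.94) and Dtnb (0.94). The lowest were Slamf8 (-0.95), Wdr36 (-0.93), Mpp1 (-0.93), Gm12892 (-0.93) and Gm10180 (-0.93). Npas2, the relative of CLOCK, ranked 228 and Nr1d2 ranked 323 from the top. Over the 11 CD45- libraries, the highest of 16452 genes were Arsg (0.90), Cep70 (0.88), Zfp958 (0.87), Prag1 (0.85) and Lpxn (0.84). The lowest were Rpl23a (-0.91), Rpl14 (-0.89), Rps15 (-0.88), Rpl13-ps6 (-0.88) and Rps23 (-0.86), which are ribosomal protein genes or a copy of one. The libraries share their depth and makeup across all genes, so these values are descriptions without a test.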

How the data were processed

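RNA from 24 libraries was sequenced by the authors, who trimmed reads with cutadapt (quality under 20, length under 40 bp), aligned them to mm10 (GRCm38) with STAR and counted reads per gene with featureCounts. Versions and strand option are not given in the sources used here. The deposited values are whole-number counts, which were used unchanged. Levels are CPM scaled by TMM factors over all libraries. Differences were tested on the counts by edgeR's quasi-likelihood test (version 4.0.16, R 4.3.3) after a filter on low counts (filterByExpr, minimum count 10, minimum total 15), two-sided, with Benjamini-Hochberg adjustment over all genes tested and a threshold of 0.05. All 10 clock genes passed the filter in each fit. Shares of all genes that passed are given at the adjusted threshold only. Counts at an unadjusted p under 0.05 therefore have no share to be read against. Each fraction had a fit with a mean per genotype, and 1 fit over 21 libraries compared the fractions. The 3 libraries that the authors had removed after principal component analysis were left out, and added back as an alternative. Other alternatives were the likelihood ratio test, DESeq2 1.42.0, a composition covariate, leaving out immunoglobulin genes, scaling by RLE, fitting without the filter, leaving out each library and, between fractions, a term for each genotype and age (chosen after seeing the data). Correlations used 100000 resamples. The smallest chi-square per degree of freedom between libraries of 1 group was 39.6, so none was a duplicate. With 3 counts as the limit that a count of 0 allows, the limit ran from 0.0358 to 0.416 CPM, for counting error only. The scripts were tested on simulated data.

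The clock genes and the other lists were chosen with earlier results of these data known. Named in the text are all 10 clock genes, of the other clock, immediate-early and glucocorticoid lists the genes past the threshold (up to 6 by smallest p), and the 5 genes most and least like Arntl. Promoter sequences were matched by symbol in RefSeq (GRCm38.p6) for 9 of the 10 genes, with 13 entries; Per2 was the other.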

Additional observations from a re-analysis of the deposited data

Results flagged for a closer look

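A single library lay far from the others of its group in 2 of 50 groups of 4 to 6 libraries that were examined, where chance gives about 1 in 20. Gaps and ranges were taken on the scale of log2(CPM + 0.5). For Per1 in CD45+ Hoil1+/+ libraries, replicate 12 was lowest at 107 CPM against 320.5 CPM for the next, a gap of 0.653 of the range of the group on that scale. For Cry1 in CD45- Hoil1-/- libraries, replicate 1 was highest at 27.9 CPM against 19.3 CPM for the next, a gap of 0.754 of the range on that scale.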

How the results depend on the processing

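No clock gene passed in any genotype comparison under the alternatives run, except that 1, Dbp, passed for the Hoil1 effect in CD45- Il4ra f/f libraries by the likelihood ratio test (1) and DESeq2 (1), for the CD45- difference between Il4ra genotypes by DESeq2 (1), and for the difference of the Hoil1 effect between fractions by both (1 and 1). Between fractions 5 to 7 clock genes passed when each library was left out, and Per2 and Cry2 lost the call without the CD45- replicate 1. Over all genes, the 10 genotype comparisons called 0 to 6 genes, 51 to 1223 by the likelihood ratio test and 100 to 1572 by DESeq2. When each library was left out, the CD45- counts ran from 0 to 474 for the Hoil1 effect in Il4ra f/f mice, 1 to 173 for the averaged one, 0 to 220 for the Il4ra effect (all highest without replicate 2) and 0 to 1199 for the difference between Il4ra genotypes (1199 without replicate 11, 723 without replicate 2). The count for the Hoil1 effect between fractions ran from 2 to 211 (without replicate 2), and the CD45+ counts stayed at 10 or fewer. Of the differences of single clock genes that were tallied, 4 reversed and 290 kept direction and side of the threshold. The tally covered the averaged CD45+ Hoil1, CD45+ Il4ra and CD45- Hoil1 effects and the fraction difference. It also held Nr1d1 and Per1 for the CD45- Hoil1 effect in Il4ra f/f mice, and Nr1d1 and Nr1d2 for the Hoil1 effect between fractions. Dbp was tallied only within CD45+ cells, so its changes of call given above are not in it. With all libraries added, the CD45+ Hoil1 values became -0.38 for Per1 and -0.10 for Clock and the CD45- Hoil1 value for Per2 -0.11, and with the covariate the CD45+ Il4ra value for Clock became -0.00071. The cause was not tested. When each library was left out, the sign changed for the CD45+ Hoil1 effect of Per1 (-0.34 to 0.26), Cry1 (-0.39 to 0.15), Nr1d1 (-0.094 to 1.11) and Dbp (-0.26 to 0.033), the CD45+ Il4ra effect of Cry2 (-0.36 to 0.72), the CD45- Hoil1 effect of Per2 (-0.74 to 0.51) and Cry1 (-0.24 to 0.14), and the fraction difference of Per3 (-0.41 to 2.08). It did not for Per2 (-1.32 to -0.71) and Cry2 (-1.08 to -0.64) between fractions.

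With CPM by total counts, 3 of 18 correlations with Arntl passed, all in CD45+ libraries (Clock 0.88, Nr1d2 0.92 and Dbp 0.77). Other correlations changed sign. In CD45+ libraries these were Cry1 (0.26 with all libraries, 0.50 by total counts, 0.34 without the 2 farthest libraries), Cry2 (0.12 with all libraries, 0.40 by total counts, 0.14 for deviations from the genotype mean), Per2 (-0.064) and Per3 (-0.16) without the 2 farthest libraries. In CD45- libraries they were Clock (0.058 with all libraries, 0.105 by total counts, 0.178 for deviations and, in the 6 epithelium-rich libraries, 0.027), Per1 (0.089 by total counts, 0.29 for deviations, 0.03 in the 6), Cry2 (0.008, 0.107 and 0.24 likewise), Nr1d1 (0.28 for deviations, 0.09 in the 6) and Nr1d2 (-0.33 without the 2 farthest). The set of 6 was chosen after seeing the data. No paired analysis was possible because the replicate numbers of the titles are not shared between groups, and the labels do not tie libraries to mice. Some but not all CD45+ and CD45- libraries of 1 genotype share an age, so a term for each genotype and age was added after seeing the data. With it 7 clock genes and 7908 of all genes passed between fractions (7 and 9321 without), and 0 and 1 for the Hoil1 effect between fractions (0 and 5 without).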
